A study of Mus musculus with 11 samples.

Results

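The 8 genes described here encode the caspases, death receptors and apoptosis inhibitors Fas, Fadd, Cflar, Casp8, Casp9, Apaf1, Xiap and Birc3, that is, apoptosis machinery outside the BCL-2 family. They were taken by symbol from the 14604 genes in the deposited table. All 8 are listed, and all 8 passed the filter on low values that 13897 of the listed genes passed. Apoptosis runs along a pair of routes. In the extrinsic route a death receptor such as FAS binds the adaptor FADD, which recruits procaspase-8, and the protease-dead relative c-FLIP, encoded by Cflar, limits its activation. In the intrinsic route cytochrome c released from mitochondria drives APAF1 to build the apoptosome, which activates caspase-9. XIAP binds and blocks caspase-9, whereas cIAP2, encoded by Birc3, is a ubiquitin ligase that acts mainly in TNF receptor and NF-kB signaling. In T cells FAS and its ligand are known for removing activated cells.

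RNA of regulatory T cells (Tregs) was sequenced from MC38 tumors and from spleens of mice bearing these tumors, with MC38 being a mouse colon adenocarcinoma line. Cells were sorted as live CD4+ T cells by CD25 and GITR, which Tregs carry at high levels. The 6 spleen libraries comprised 3 of the genotype CD177flox/flox, labeled WT, and 3 of CD177flox/flox/FOXP3-CreYFP, labeled KO, and the 5 tumor libraries comprised 3 WT and 2 KO. Every mouse carried the MC38 graft and floxed Cd177, and the WT mice carried no Cre, so that loss of CD177 and the presence of Cre-YFP cannot be told apart in these groups. The Cre is driven from Foxp3 and acts in Tregs. Cd177 itself is not analysed here, so the genotype labels were not checked against it. The labels give no age for these mice, and the age in the methods is given for purchased C57BL/6 mice. Spleens came from the tumor-bearing mice themselves, but the labels do not tie a library to a named mouse, so the p-values measure the spread between these libraries.

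Values are the deposited log2(n + 1), in which n is an abundance summed by gene symbol, and a difference of 1 means a factor of 2 in n + 1. The sum of n over a library lay between 712832 and 844331 in spleen and between 1103159 and 1304548 in tumor. The scaling of n is not known, and neither is the number of reads behind it. Levels of different genes were therefore not compared, since n is not known to be per length, except to name the highest gene of a marker list. Those names and the sums over a marker list carry this limit. The Treg marker list of 6 genes was present in both tissues, with a summed level of 9.86 to 10.08 on the log2 scale in spleen and 9.64 to 10.35 in tumor. Of these 6, 2 were higher and 3 lower in tumor (median difference -0.34), and Ctla4 led the sum in both tissues (8.15 on average in spleen and 8.72 in tumor). Foxp3, the Treg master regulator, stood at 6.35 ± 0.30 (SD, n = 6) in the spleen libraries and at 5.50 ± 0.55 (SD, n = 5) in the tumor libraries. Of the sort genes, Cd4 was 7.72 on average in spleen and 7.30 in tumor, Il2ra, which encodes CD25, was 7.26 in spleen and did not pass (difference -0.27), and Tnfrsf18, which encodes GITR, was 6.43 in spleen and 7.51 in tumor. Markers of other cells moved with tissue. All 18 myeloid markers passed as higher in tumor (summed level 8.48 to 9.42 in spleen and 13.85 to 14.36 in tumor, with Lyz2 at 12.35 on average in tumor and Ctss at 6.90 in spleen). All 7 fibroblast markers were higher too (3.31 to 4.39 in spleen and 10.25 to 11.53 in tumor). Of 10 CD8 T and NK cell markers 6 were higher and 1 was lower (5.55 to 6.57 and 8.06 to 9.42). Of 6 B-cell markers 1 was higher and 4 were lower (7.45 to 8.57 and 4.98 to 6.27), and of 8 T-cell lineage markers 6 were lower (10.65 to 10.77 and 9.82 to 10.52). No marker of any list was at 0 in every library of a tissue. These shifts accompany every tumor-versus-spleen value below, and their part in them was not tested. In bulk samples fewer cells of a type and less RNA per cell cannot be told apart.

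Apaf1, Casp9 and Casp8 were the genes whose tumor and spleen libraries did not overlap, so the sequence before their transcription starts is shown. Each run holds 220 bases of RefSeq sequence on GRCm38.p6, from 250 to 31 bases before the annotated start, 5′ to 3′ on the strand of the gene. Capitals mark the GC box GGGCGG on either strand, the letters bound by SP-family factors.
Apaf1 (chr10:91082774-91082993, minus strand): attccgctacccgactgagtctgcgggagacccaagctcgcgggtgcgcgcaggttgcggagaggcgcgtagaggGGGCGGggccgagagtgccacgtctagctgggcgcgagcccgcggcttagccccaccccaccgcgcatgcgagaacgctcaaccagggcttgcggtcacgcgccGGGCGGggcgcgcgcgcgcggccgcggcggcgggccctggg
Casp9 (chr4:141793362-141793581, plus strand): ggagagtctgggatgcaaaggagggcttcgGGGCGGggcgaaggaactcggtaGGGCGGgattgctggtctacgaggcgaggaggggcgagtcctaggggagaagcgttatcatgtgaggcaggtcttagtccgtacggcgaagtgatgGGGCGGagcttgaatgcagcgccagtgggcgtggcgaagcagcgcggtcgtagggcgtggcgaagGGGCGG
Casp8 (chr1:58802252-58802471, plus strand): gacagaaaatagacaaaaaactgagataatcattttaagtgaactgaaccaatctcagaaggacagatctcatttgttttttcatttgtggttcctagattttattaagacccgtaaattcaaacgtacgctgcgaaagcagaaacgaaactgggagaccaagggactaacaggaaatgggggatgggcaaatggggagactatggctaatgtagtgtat
The Apaf1 window held 2 GC boxes and 76.4% G or C, and the Casp9 window held 4 GC boxes and 65.5% G or C. The Casp8 window held none, with 39.1% G or C. The RefSeq start used for Casp8 lies 7128 bases downstream of the first base of the gene in GENCODE, at the start of 1 of its 4 transcripts there, so the window is inside the gene as annotated and the other starts were not searched. For Casp9 this distance was 0 and for Apaf1 27 bases. A GC box was found in 28.7% of all 32524 RefSeq start windows of the same length. The same windows were searched on both strands for the E2F letters TTTCCCGC, TTTCGCGC, TTTGCCGC and TTTGGCGC (in 1.6% of all windows), the E-box CACGTG (5.01%) and the NF-kB consensus (6.36%), and none of these motifs was in the windows of Apaf1, Casp9 or Casp8. Among the other 5 genes a GC box was in the windows of Fas (1), Fadd (1) and 1 of the 3 Xiap starts and in neither that of Cflar nor that of Birc3. Of the E2F, E-box and NF-kB motifs, the windows of these 5 genes held only 1 E-box, in that of Fas. No promoter activity or factor binding was measured in these samples.

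Of the 8 genes, 3 passed an adjusted p of 0.05 between tumor and spleen with genotypes pooled, 2 of them higher (Apaf1 and Casp9) and 1 lower (Casp8), by limma with Benjamini-Hochberg adjustment over all genes tested. Among all genes 78.9% passed, 43.1% higher and 35.9% lower. The libraries of the tissues did not overlap for the same 3 of the 8 genes and for 63.5% of all genes. The median difference of the 8 genes was 0.030 and the median size of their differences was 0.24, compared with 0.082 and 0.67 over all genes. A difference smaller than 0.5 in either direction was found in 6 of the 8 genes (75%) and in 38.7% of all genes. The genes are described from the receptor inward.

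**Figure D1:**
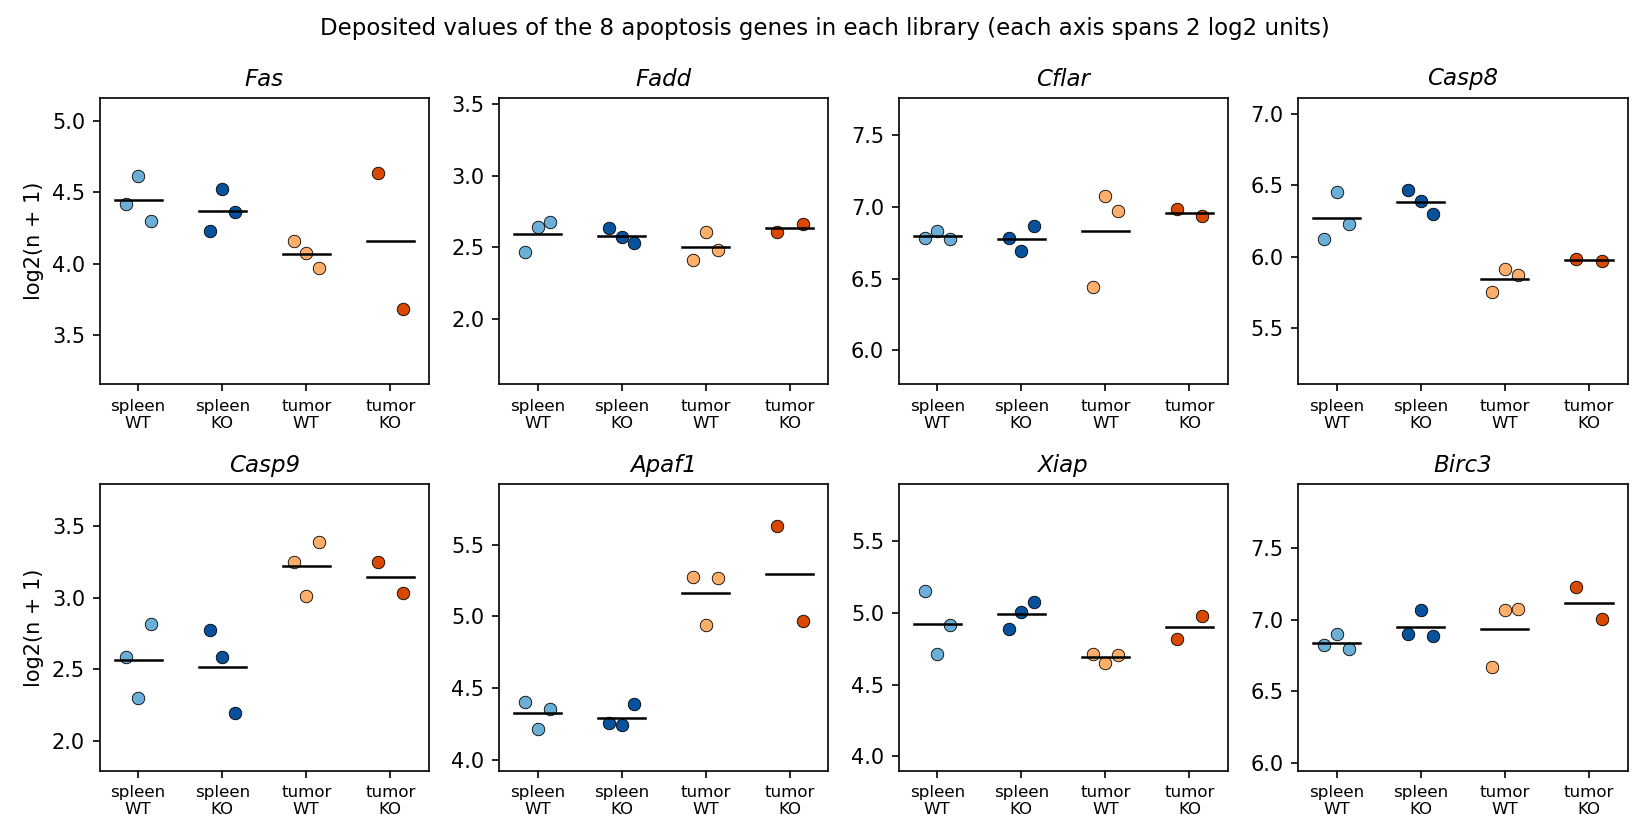
Deposited log2(n + 1) of the 8 genes on the y axis in each library, grouped by tissue and genotype on the x axis, with points for libraries, bars for group means and an equal span of 2 log2 units in every panel. Apaf1 and Casp9 lay higher and Casp8 lower in each of the 5 tumor libraries than in any spleen library, while the other 5 genes overlapped between tissues.

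Fas, the death receptor for FAS ligand (GRCm38 chr19:34290666-34327772, plus strand), was 4.42, 4.62 and 4.30 in the WT spleen libraries and 4.23, 4.52 and 4.36 in the KO spleen libraries. In tumor it was 4.16, 4.07 and 3.97 in WT and 4.63 and 3.69 in KO. The 2 KO tumor libraries held the highest and the lowest value of all 11, and the tissues overlapped. The difference of tumor minus spleen was -0.30 (standard error 0.14, 95% interval -0.61 to -0.00056) and did not pass (adjusted p = 0.062, limma). Without tumor KO replicate 1 the difference was -0.44 (adjusted p = 0.0025, limma), while without tumor KO replicate 2 it was -0.20 (adjusted p = 0.17, limma). With all 11 libraries kept, the call also changed with the scalings described below. Fas passed as lower after quantile normalization (-0.55, adjusted p = 0.0042, limma) and median centring (-0.52, adjusted p = 0.0066, limma). It also did so with equal totals (-0.90, adjusted p = 9.3e-05, limma), but not relative to the Cd3 genes (0.044). Tumor KO replicate 1 had the highest Treg marker sum of the tumor libraries (10.35), the lowest fibroblast sum (10.25) and the second-highest T-cell lineage sum (10.36). Among the WT libraries fitted alone Fas was lower by the same test (-0.38, adjusted p = 0.026, limma), and with the spread shared over all 11 libraries this WT difference did not pass (adjusted p = 0.12, limma).

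Fadd, the adaptor that links FAS to procaspase-8 (chr7:144577318-144582463, minus strand), gave close values throughout. It was 2.47, 2.64 and 2.68 in WT spleen, 2.64, 2.57 and 2.53 in KO spleen, 2.41, 2.61 and 2.49 in WT tumor and 2.61 and 2.66 in KO tumor. Every tumor value except that of WT replicate 1 lay within the range of the spleen libraries. The difference was -0.034 (standard error 0.084, 95% interval -0.22 to 0.15, adjusted p = 0.72, limma), smaller in size than that of all but 2.82% of the genes tested. Exons of Fadd overlap those of Faddos on the opposite strand, and it is not known whether reads were assigned by strand.

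Cflar, the gene for the caspase-8 inhibitor c-FLIP (chr1:58711508-58758884, plus strand), was 6.78, 6.83 and 6.78 in WT spleen and 6.78, 6.69 and 6.87 in KO spleen. The tumor libraries gave 6.44, 7.08 and 6.97 in WT and 6.99 and 6.94 in KO. All tumor libraries except WT replicate 1 were above all spleen libraries, and WT replicate 1 was below all of them. The difference was 0.095 (standard error 0.098, 95% interval -0.12 to 0.31, adjusted p = 0.39, limma), and without tumor WT replicate 1 it was 0.20 (adjusted p = 0.0042, limma), while without tumor WT replicate 2 it was 0.045 (adjusted p = 0.69, limma). Tumor WT replicate 1 had the lowest myeloid sum among the tumor libraries (13.85), the highest T-cell lineage sum (10.52) and the highest CD8 T and NK cell sum (9.42).

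Casp8, the initiator caspase of the extrinsic route (chr1:58795374-58847503, plus strand), starts 36489 bases beyond the end of Cflar. It was 6.12, 6.46 and 6.23 in WT spleen and 6.47, 6.39 and 6.30 in KO spleen. In tumor it was 5.75, 5.91 and 5.88 in WT and 5.99 and 5.97 in KO, so that the highest tumor library stayed below the lowest spleen library. Casp8 fell from 6.33 ± 0.14 (SD, n = 6) to 5.90 ± 0.09 (SD, n = 5), by 0.43 on the log2 scale (standard error 0.073, 95% interval -0.59 to -0.27, adjusted p = 0.000134, limma). This corresponds to 25.7% less n + 1. Its size was at the 33.6th percentile of all genes tested.

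Casp9, the initiator caspase of the intrinsic route (chr4:141793612-141815976, plus strand), was 2.59, 2.30 and 2.82 in WT spleen and 2.77, 2.59 and 2.19 in KO spleen. The tumor libraries gave 3.25, 3.01 and 3.39 in WT and 3.25 and 3.03 in KO, each above every spleen library. The mean rose from 2.54 ± 0.25 (SD, n = 6) to 3.19 ± 0.16 (SD, n = 5), a difference of 0.65 (standard error 0.13, 95% interval 0.36 to 0.93, adjusted p = 0.000492, limma). Exons of Casp9 overlap those of Cela2a and Ctrc on the opposite strand, so its values are uncertain to that extent.

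Apaf1, the scaffold of the apoptosome (chr10:90989311-91082770, minus strand), had the largest difference of the 8 genes on the deposited scale, though not after quantile normalization or with equal totals, where Casp8 differed more. It was 4.40, 4.22 and 4.35 in WT spleen and 4.25, 4.24 and 4.38 in KO spleen (4.22 to 4.40 over the 6 libraries). In tumor it was 5.28, 4.94 and 5.27 in WT and 5.63 and 4.97 in KO. The mean rose from 4.31 ± 0.08 (SD, n = 6) to 5.22 ± 0.28 (SD, n = 5), a difference of 0.91 (standard error 0.11, 95% interval 0.67 to 1.15, adjusted p = 6.92e-06, limma), or 1.88-fold in n + 1. By size this was at the 63.0th percentile of all genes tested. The highest value was in tumor KO replicate 1. Among the tumor libraries this one had the highest Treg marker sum (10.35), the lowest fibroblast sum (10.25) and the second-lowest myeloid sum (13.99). Tumor WT replicates 1 and 3 gave 5.28 and 5.27 at myeloid sums of 13.85 and 14.29, and no relation to these sums was tested.

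Xiap, the direct inhibitor of caspase-9 (chrX:42059679-42109656, plus strand), was 5.15, 4.71 and 4.91 in WT spleen and 4.89, 5.01 and 5.07 in KO spleen. The tumor values were 4.71, 4.65 and 4.71 in WT and 4.82 and 4.98 in KO. The WT tumor libraries lay at or near the lowest spleen value, and the KO tumor libraries lay within the spleen range. The difference was -0.18 (standard error 0.088, 95% interval -0.37 to 0.0067, adjusted p = 0.071, limma). It passed without spleen WT replicate 2 (-0.23, adjusted p = 0.021, limma) and without tumor KO replicate 2 (-0.24, adjusted p = 0.027, limma).

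Birc3, the gene for cIAP2 (chr9:7848699-7873186, minus strand), was 6.82, 6.90 and 6.79 in WT spleen and 6.90, 7.07 and 6.89 in KO spleen. It was 6.67, 7.07 and 7.07 in WT tumor and 7.23 and 7.01 in KO tumor, so the tissues overlapped, with tumor WT replicate 1 the lowest of all libraries. The difference was 0.11 (standard error 0.089, 95% interval -0.080 to 0.31, adjusted p = 0.26, limma), 0.20 without tumor WT replicate 1 (adjusted p = 0.016, limma) and 0.059 without tumor KO replicate 1 (adjusted p = 0.55, limma). Cflar and Birc3 were the genes whose call changed without tumor WT replicate 1, and without it 5 of the 8 genes passed. Birc2, the gene for cIAP1, lies 11634 bases from Birc3 and averaged 6.09 ± 0.17 (SD, n = 6) in the spleen and 5.82 ± 0.40 (SD, n = 5) in the tumor libraries (-0.27, adjusted p = 0.13, limma).

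The calls depended on how the libraries were scaled against each other. The median difference over all genes was 0.082 as deposited, -0.16 after quantile normalization, -0.14 after median centring, -0.44 with equal totals of n, and 0.43 with values taken relative to the mean of the T-cell genes Cd3d, Cd3e and Cd3g in the same library. Of all genes called, 54.5% were higher as deposited and 42.1%, 43.7%, 29.6% and 73.0% under these alternatives. Among the 8 genes the count was 3 as deposited (2 higher, 1 lower), 8 after quantile normalization (2 higher, 6 lower), 6 after median centring (2 higher, 4 lower), 7 with equal totals (1 higher, 6 lower) and 4 relative to Cd3 (4 higher). The corresponding shares of all genes called were 79%, 79.5%, 79.9% and 69.5% under the alternatives. Apaf1 was called higher under each of the 5 scalings, with the smallest difference, 0.30, at equal totals (adjusted p = 0.026, limma), and it was the only gene of the 8 called in the same direction under all 5, against 42.3% of all genes. Casp9 was not called at equal totals (0.10, adjusted p = 0.47, limma), and Casp8 was not called relative to Cd3 (-0.080, adjusted p = 0.67, limma). Relative to the median over all genes, the deposited differences were 0.83 for Apaf1, 0.56 for Casp9, 0.031 for Birc3, 0.012 for Cflar, -0.12 for Fadd, -0.27 for Xiap, -0.39 for Fas and -0.51 for Casp8.

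**Figure D2:**
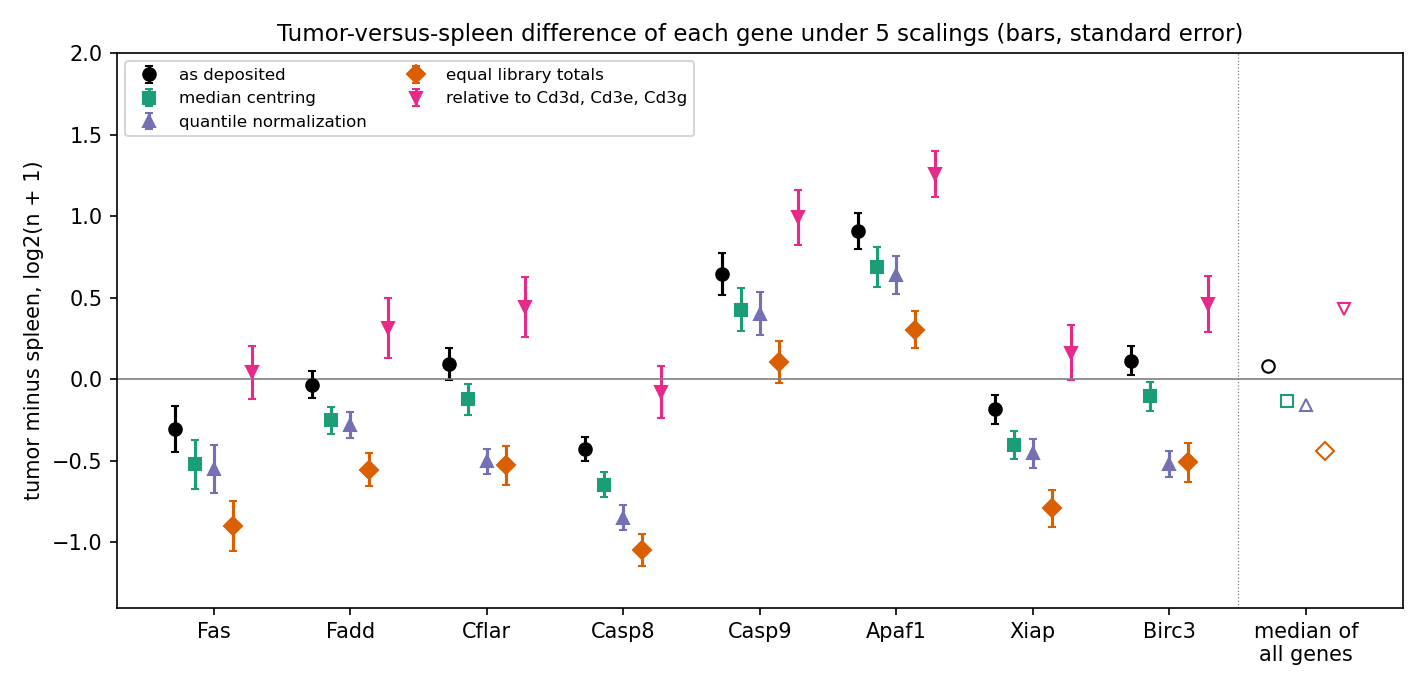
Tumor-minus-spleen difference in log2(n + 1) on the y axis for each of the 8 genes on the x axis under 5 scalings, with bars for the standard error and open symbols for the median over all 13897 genes tested. Apaf1 lay above 0 under every scaling, from 0.30 to 1.26, and Casp8 was lowest, Casp9 next to highest and Apaf1 highest of the 8 genes under each of the 5 scalings.

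A factor common to a library largely cancels in the difference between 2 of its genes, although quantile normalization applies no common factor. The 6 pairs compared set an inhibitor against its target, a receptor against its adaptor, the apoptosome scaffold against its caspase, and IAP genes against each other, and only the change of each pair between tissues is read here. Cflar minus Casp8 was 0.66, 0.38 and 0.54 in WT spleen, 0.32, 0.30 and 0.56 in KO spleen, 0.69, 1.17 and 1.10 in WT tumor and 1.0 and 0.96 in KO tumor. All tumor libraries were above all spleen libraries, WT replicate 1 by the narrowest margin. The shift toward the inhibitor was 0.52 (exact two-sided permutation test over 462 splits, p = 0.0043, the smallest the design allows, p = 0.013 adjusted over 6 pairs), and after quantile normalization it was 0.34 (adjusted p = 0.026). Of the genes of this pair Casp8 fell and Cflar did not pass. Xiap minus Casp9 was 2.57, 2.41 and 2.09 in WT spleen, 2.11, 2.42 and 2.88 in KO spleen, 1.46, 1.63 and 1.32 in WT tumor and 1.57 and 1.95 in KO tumor. Every tumor library lay below every spleen library, and the shift toward the caspase was -0.83 (exact two-sided permutation test, p = 0.0043, adjusted p = 0.013). Of the genes of this pair Casp9 rose (0.65) and Xiap did not pass (-0.18). The caspase gene thus fell relative to its inhibitor gene in the extrinsic pair and rose relative to it in the intrinsic pair. Single genes separated the tissues without overlap in 63.5% of all genes. The share of all gene pairs that did so was not computed, so it is not known whether these separations are particular to the 2 pairs.

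In the other 4 pairs the tissues overlapped. Birc3 minus Xiap averaged 1.94 ± 0.19 across the 6 spleen libraries and 2.23 ± 0.22 (SD) across the 5 tumor libraries, for a difference of 0.30 (exact permutation test, adjusted p = 0.0952). Birc3 minus Birc2 was 0.80 ± 0.17 and 1.18 ± 0.44 (difference 0.38, n = 6 and 5, exact permutation test, adjusted p = 0.1299). Apaf1 minus Casp9 was 1.76 ± 0.27 and 2.03 ± 0.20 (difference 0.26, n = 6 and 5, exact permutation test, adjusted p = 0.1299), and Fas minus Fadd was 1.82 ± 0.17 and 1.55 ± 0.37 (difference -0.27, exact permutation test, adjusted p = 0.1429).

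**Figure D3:**
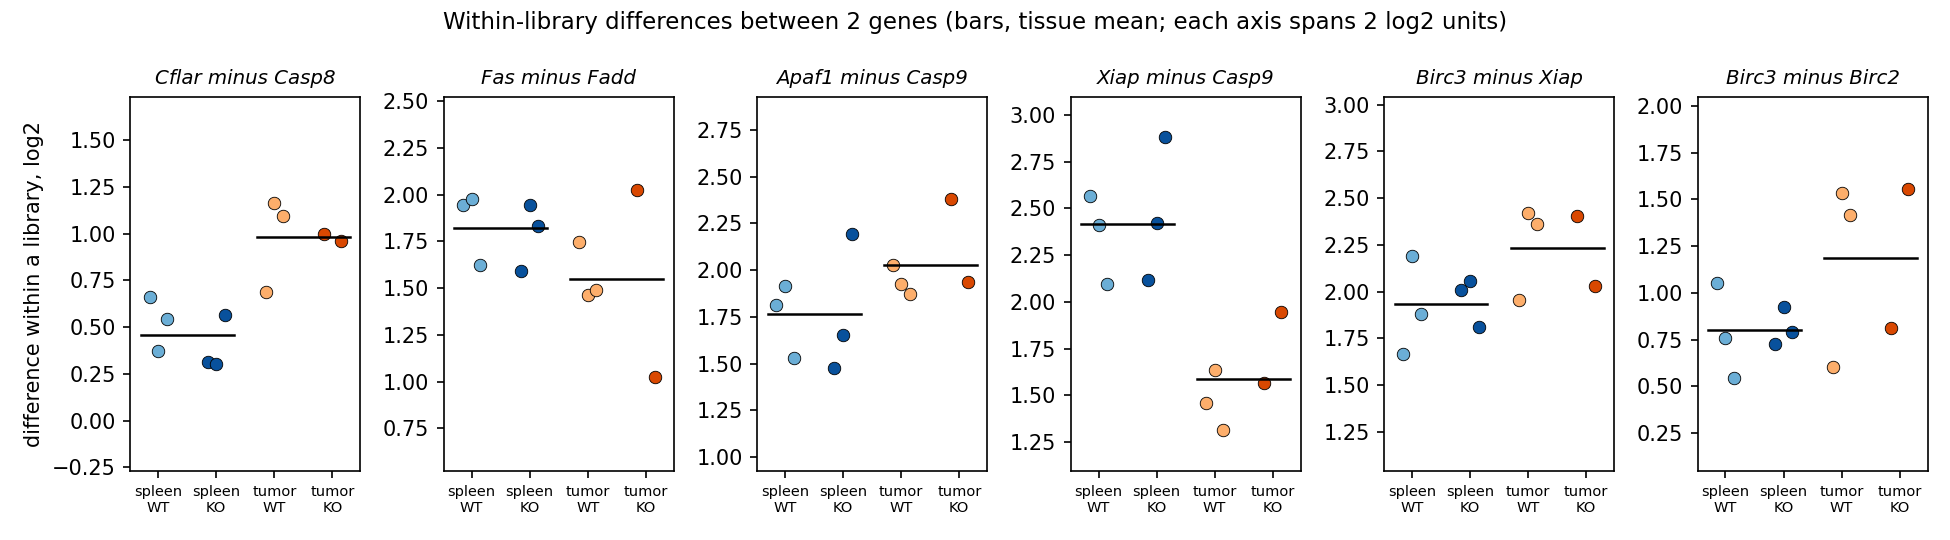
Log2 value of the first gene minus that of the second within each library on the y axis for 6 pairs, grouped by tissue and genotype on the x axis, with points for libraries and bars for tissue means. The tissues separated for Cflar minus Casp8 (means 0.46 and 0.98) and Xiap minus Casp9 (2.42 and 1.59) and overlapped for the other 4 pairs.

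The same 3 genes passed within each genotype. In WT mice Apaf1 was higher by 0.84, Casp9 by 0.65 and Casp8 lower (-0.42), among 70.5% of all genes called. In KO mice the values were 1.01, 0.62 and -0.41, among 65.7% of all genes called, with adjusted p between 0.000625 and 0.0236 (limma). In KO the count was 2 without spleen KO replicate 3 (1 higher, 1 lower), and without tumor KO replicate 1 it was 3 with 1 higher and 2 lower. The difference between the genotypes in the tumor-versus-spleen change was called for 0 of the 8 genes and 0% of all genes (limma). It lay between -0.026 for Casp9 and 0.17 for Apaf1 (adjusted p = 0.9997 for each), none of the 8 had an unadjusted p under 0.05, and 383 genes of all did. The widest of the 95% intervals, that of Fas, reached 0.68 to either side of its estimate, more than the tissue difference of Fas itself (-0.30). The interval of Casp8 ran from -0.30 to 0.34, beside its tissue difference of -0.43.

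Between KO and WT within a tissue, 0 of the 8 genes passed in limma. In spleen the differences were between -0.074 for Fas and 0.12 for Casp8, with 0% of all genes called and 281 genes at an unadjusted p under 0.05, none of them among the 8. In tumor they were between -0.077 for Casp9 and 0.21 for Xiap, with 0.0072% of all genes called, which is the 1 gene Gm45837, named after its value was seen. None of the 8 was among the 634 genes at an unadjusted p under 0.05 in tumor. The 95% intervals reached up to 0.45 in spleen and 0.50 in tumor to either side, again widest for Fas, and only 2 KO tumor libraries entered the fit.

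Among 41 other apoptosis genes in 6 role lists the share called was close to the 78.9% of all genes, since 33 passed, 20 higher and 13 lower, with a median difference of 0.30. The direction depended on the scaling, since with equal totals 10 were higher and 21 lower (median -0.30) and relative to Cd3 23 were higher and 7 lower (median 0.65). Under all 5 scalings 17 of the 41 were called in the same direction, 10 higher and 7 lower, and 1 of the 8 genes was. Genes beyond those the naming rule picks are given in the next paragraphs to complete small counts, and were chosen after their values were seen.

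Among 10 death ligands and receptors 6 were higher and 3 lower, with a median difference of 1.46, and with equal totals 5 were higher and 4 lower. Tnfsf12, which encodes TWEAK, rose by 3.43 on the log2 scale, from 0.85 ± 0.18 (SD, n = 6) to 4.29 ± 0.37 (SD, n = 5), and its receptor gene Tnfrsf12a rose by 3.13. Tnf itself rose by 3.39, with tumor libraries from 5.73 to 8.68 above spleen libraries from 4.03 to 4.79. Tnfrsf1a, the main receptor of TNF, and Tnfrsf21 were higher by 2.06 and 2.23. Tnfrsf25, the gene for DR3, a death-domain receptor of T cells, fell from 5.50 ± 0.10 (SD, n = 6) to 2.96 ± 0.68 (SD, n = 5), a difference of -2.54. Tnfrsf10b, the mouse TRAIL receptor gene, fell by 1.02 and Lta, which encodes lymphotoxin alpha, by 0.88 on the log2 scale. All of these were called in the same direction under the 5 scalings. Fasl, the ligand of FAS, rose by 0.87 (adjusted p = 0.0047, limma) but not at equal totals (0.29, adjusted p = 0.26, limma), and its tumor values of 3.10 to 4.73 overlapped the spleen values of 2.95 to 3.62. Tnfsf10, the gene for TRAIL, did not pass as deposited (-0.24).

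Another 4 caspase genes were examined and passed, 3 higher and 1 lower (median 0.71), and with equal totals 1 was higher and 1 lower (median 0.11). The inflammasome caspase gene Casp1 rose from 4.35 ± 0.26 (SD, n = 6) to 5.61 ± 0.13 (SD, n = 5), by 1.26. Casp2, the caspase of the PIDDosome, fell by 0.77 on the log2 scale. These 2 were called in the same direction under the 5 scalings, whereas Casp6 (0.77) and Casp4 (0.65) were not called at equal totals (0.18 and 0.039).

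In the 7 adaptors and regulators of the receptor complex 2 were higher and 3 lower as deposited, 1 and 4 with equal totals, and 3 and 0 relative to Cd3. Pea15a, which encodes a death-effector-domain protein, rose by 1.35 and kept this call under the 5 scalings. Ripk1, the kinase at the branch to necroptosis, was higher as deposited (0.40) but lower and not called at equal totals (-0.21, adjusted p = 0.062, limma). Pidd1 (-0.51), the scaffold of the PIDDosome, and the TNF receptor adaptors Tradd (-0.41) and Traf2 (-0.39) were lower as deposited and not called relative to Cd3. Faim (0.30) and Cradd (-0.24), the adaptor between PIDD1 and caspase-2, did not pass as deposited. Faim was called higher relative to Cd3 (0.65), and Cradd was called lower with equal totals (-0.75).

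Of 7 mitochondrial and nuclease factors 1 was higher, 3 were lower and 3 did not pass as deposited, while with equal totals 6 were lower and none was higher. Dffb, the nuclease that cuts DNA in apoptosis, fell by 1.24 on the log2 scale, and its inhibitor and chaperone Dffa by 1.11, both under all 5 scalings. Htra2, a mitochondrial protease that antagonizes IAPs, rose by 0.58 as deposited and was at -0.016 with equal totals. Diablo, the gene for the IAP antagonist SMAC, was lower as deposited (-0.26) but at 0.091 and not called relative to Cd3. Cycs (0.15), the gene for the cytochrome c that APAF1 binds, Endog (0.079) and Aifm1 (0.058) did not pass as deposited.

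Among 7 other genes, 6 for IAPs and Xaf1, 3 were higher and 2 lower as deposited and 2 were higher and 4 lower with equal totals. Naip2 rose by 1.60 and Birc5, which encodes the mitotic protein survivin, by 1.51, while Birc6 fell from 7.33 ± 0.06 (SD, n = 6) to 6.03 ± 0.06 (SD, n = 5), a difference of -1.30. These 3 were called under all 5 scalings. Naip6 was lower as deposited (-0.46) and not called relative to Cd3. Xaf1, a XIAP-binding factor, was higher as deposited (0.36, adjusted p = 0.021, limma) and lower but not called at equal totals (-0.25). Birc2 and Naip5 (-0.40) did not pass as deposited but were called lower with equal totals (-0.89 and -0.96). The Naip genes are close paralogs among which reads may have been shared.

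All 6 genes of necroptosis and pyroptosis passed, 5 higher and 1 lower (median 0.73), against 1 higher and 2 lower with equal totals. Mlkl, the executioner of necroptosis, rose from 1.36 ± 0.24 (SD, n = 6) to 4.52 ± 0.55 (SD, n = 5), by 3.16, under all 5 scalings. Its kinase gene Ripk3 (0.73), the pore-forming Gsdmd (0.75), Zbp1 (0.73) and Pycard (0.31) were higher as deposited, but at equal totals Ripk3, Gsdmd and Zbp1 were not called (0.13, 0.14 and 0.11) and Pycard was lower (-0.30, adjusted p = 0.020, limma). Gsdme was lower as deposited (-0.43) and not called relative to Cd3. Beside these lists the myeloid marker list had a median difference of 4.97, and the part of other cells in them was not tested.

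**Figure D4:**
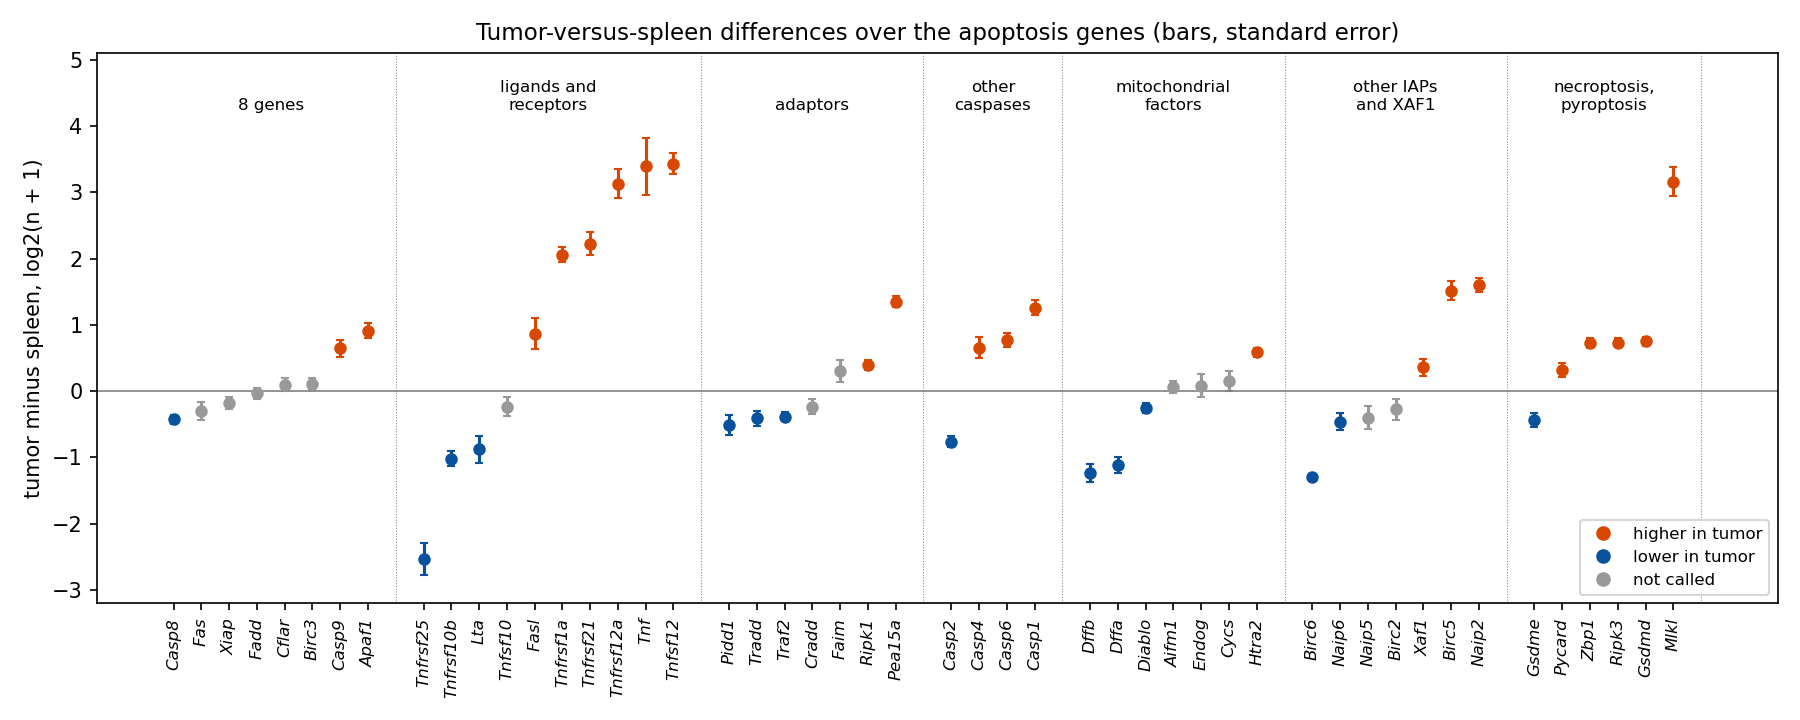
Tumor-minus-spleen difference in log2(n + 1) on the y axis for the 8 genes and the 41 other apoptosis genes on the x axis, sorted within each role, with bars for the standard error and color for the call in limma. The 8 genes span -0.43 to 0.91, while death ligands and receptors span -2.54 to 3.43.

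Genes most like each of the 8 were found by Pearson's r over the 11 libraries among the genes that averaged 3 or more on the log2(n + 1) scale. These coefficients are a description, since the libraries form a spleen and a tumor cluster and share their scaling. For Apaf1 they were Mapkapk3 (r = 0.98) and Pfkfb3 (0.98), for Casp9 Il1r2 (0.95) and Ap5s1 (0.94), and for Casp8 Disp1 (0.97) and Atp11b (0.97). For Fas they were Dusp11 (0.90) and Atg4d (0.90), for Fadd Gss (0.80) and Mkln1 (0.78), and for Xiap Foxn2 (0.91) and Cdc25b (0.90). Cflar was most like Gm13237 (0.93) and Slc7a11 (0.85), and Birc3 most like Pts (0.89) and Bcl2l11 (0.86), the gene for BIM.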

How the data were processed

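Libraries of RNA depleted of ribosomal RNA came from Tregs sorted from spleen or MC38 tumor. According to the methods and processing notes, the authors ran kallisto against mm10, passed its estimated counts through sleuth 0.30.0, added them up by symbol and deposited log2(n + 1) values. The sources used here give no kallisto version, annotation or scaling of n, so no counting interval can be given and precision rests on the spread between libraries.

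Groups follow the labels' tissue and genotype. Genes with a mean of at least 0.5 were kept (13897 of 14604). The 5 tumor and 6 spleen libraries were compared with limma 3.58.1 in R 4.3.3 using a mean-variance trend, and a model with 4 group means gave the genotype contrasts. A call means a Benjamini-Hochberg adjusted p under 0.05. Pairs were compared by exact two-sided permutation (numpy 2.4.6, smaller tail times 2). The fit was tested on simulated data in which few genes changed and libraries did not differ in scaling. That test does not bear on the scaling of the libraries used here. Alternatives changed the scaling, the pseudocount (0.1 or 5), the filter, the variance model, the correction, the genotype term, the replicate block and the libraries used. The members and lists were chosen with earlier results of these data known. Besides the 8 genes, the naming rule took up to 3 called genes per direction in each role list, Birc2 and Fasl, the 2 genes most like each of the 8, leading markers and sort genes. Positions came from GENCODE M21 on GRCm38, the build of mm10. Fcmr, Casp12, Casp14, Birc7 and Naip1 of the role lists and Dcn, Lum and Pax5 of the marker lists are not analysed here, and a few further genes of these lists are not reported.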

Additional observations from a re-analysis of the deposited data

Results flagged for a closer look

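Among 88 groups of 5 or 6 libraries, formed in each tissue from the 8 genes, the named other apoptosis genes and the 6 pairs, 4 held a value that stood apart from the rest of its group by a wide gap. Chance gives about 4.4. Cflar in tumor was 6.44 in WT replicate 1, with the others between 6.94 and 7.08. Dffb in tumor was 2.70 in KO replicate 1, with the others between 1.93 and 2.11. Naip6 in tumor was also 2.70 in KO replicate 1, with the others between 2.37 and 2.46. Birc2 in spleen was 5.76 in WT replicate 1, with the others between 6.09 and 6.25.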

How the results depend on the processing

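Apaf1 was called higher in all 24 alternatives, between 0.30 and 1.26 (highest adjusted p = 0.033, limma with Bonferroni correction). Casp8 and Casp9 each kept their call in 22, losing it with Bonferroni correction and under the scalings named above. Of the 8 genes, 1 passed with Bonferroni correction and 0 with a required log2 difference of at least 1 (by construction, the largest being 0.91), 8 after quantile normalization, 6 after median centring, 7 with equal totals and 3 to 5 with a library left out. Within WT these counts were 0, 0, 7, 5, 6 and 3 to 5. Within KO they were 0 with Bonferroni, 1 with the fold requirement, 5 after quantile normalization, 2 after median centring, 5 with equal totals and 2 to 3 with a library left out, and relative to Cd3 they were 2 in each genotype. As deposited, 3 genes had an unadjusted p under 0.05 in each genotype (limma). All-gene calls became 5051 and 4556, and pathway calls 20 and 15, with Bonferroni and the fold requirement. The genotype contrasts called 0 of the 8 in all 22 alternatives. Where a direction reversed among the 8 genes, the gene had not passed as deposited and the cause was not tested. Relative to Cd3, Fas was at 0.044, Fadd at 0.31 and Xiap at 0.16. With quantile normalization, then median centring, then equal totals, Cflar was at -0.50, -0.12 and -0.53 and Birc3 at -0.52, -0.11 and -0.51. Both were called lower with quantile normalization and with equal totals, but not with median centring. Relative to Cd3 both were called higher, Cflar at 0.44 (adjusted p = 0.041, limma) and Birc3 at 0.46 (adjusted p = 0.024, limma). With a library left out, Fadd lay between -0.061 and 0.0020, Fas between -0.44 and -0.20, Cflar between 0.045 and 0.20 and Birc3 between 0.059 and 0.20.

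Birc3 minus Xiap reversed to -0.065 after quantile normalization. With a library left out it lay between 0.24 and 0.37 and Birc3 minus Birc2 between 0.29 and 0.53, both passing without tumor WT replicate 1, and Apaf1 minus Casp9 lay between 0.18 and 0.35 and passed without spleen KO replicate 3. Apaf1 minus Casp9 also passed with a pseudocount of 5 (0.38, exact permutation test, adjusted p = 0.026). In WT libraries alone Cflar minus Casp8 was 0.46 and Xiap minus Casp9 -0.89, where 3 against 3 cannot go below an exact p of 0.1.

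Same-numbered spleen and tumor libraries did not deviate together (r of -0.13, 0.0070 and -0.072 in WT, 0.019 and 0.038 in KO), so the numbers were not taken to pair the samples. With so few libraries in a group, this check cannot exclude that they do. With the replicate block, limma called the same number of the 8 genes, 3 (Apaf1 0.92, Casp9 0.58, Casp8 -0.43), and Cflar minus Casp8 was 0.54 and Xiap minus Casp9 -0.74, where 5 pairs cannot go below an exact p of 0.0625. Depth in reads is unknown and sets no limit that could be given here.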
